A study of Mus musculus with 12 samples.

Results

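The 8 epithelial keratin genes Krt4, Krt7, Krt8, Krt18, Krt19, Krt20, Krt23 and Krt80 were followed through 12 RNA-seq libraries of mouse colonic organoids. They were taken by symbol, with no measured value in the rule, and are 8 of the 48795 genes in the table and 8 of the 55 keratin genes in it. These genes and the gene lists used below were, however, chosen with earlier results of these data known. Organoids are epithelial structures grown in a gel matrix, here from colon crypts of C57BL/6 mice. The 4 groups were AhR-/- (KO) organoids in the differentiated condition, WT organoids in the differentiated condition, KO organoids in the stem cell condition and WT organoids in the stem cell condition, with 3 libraries each. The stem cell condition was a medium with Wnt-3A, Noggin, Rspondin-1 and EGF, and the differentiated condition was 3 days without Wnt-3A. AhR is a transcription factor activated by small molecules from diet, microbes and pollutants. The labels give the KO as AhR deficient without naming the allele, and leave unsaid if each library is its own mouse or culture, so p-values measure the spread between libraries, which may be technical.

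Keratins build the intermediate filaments of epithelial cells. A filament forms only when a type I chain pairs with a type II chain, and epithelia differ in the pairs they make. Simple epithelia such as the gut lining rely on Krt8 (type II) with Krt18 and Krt19 (type I). Krt20 (type I) is a protein of the mature surface cells of the gut. Krt7 (type II) is known from ducts and glands, and Krt4 (type II) from moist stratified epithelia such as the oesophagus. Filaments are anchored at desmosomes and hemidesmosomes by linker proteins called plakins.

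The libraries held 25.1 to 99.0 M reads in genes. Levels are normalized counts, on a scale where library totals lay between 52.6 and 57.7 M, and differences are log2 changes of the normalized count plus 1 with their standard error. A gene is called when its limma p, adjusted over the 14856 genes tested, is under 0.05. The Ahr transcript was not lower in KO libraries, at 3110.0 to 3824 in KO differentiated against 2127 to 2260.0 in WT differentiated libraries and at 2503 to 2831 in KO stem against 1746 to 1909 in WT stem libraries. A count over the whole gene cannot check an allele whose altered part is not named. Cyp1b1, a known AhR target, was at 13.0 to 20.6 in KO differentiated against 574 to 679.6 in WT differentiated libraries, and at 269 to 571 in KO stem against 7479 to 8502 in WT stem libraries. The colon epithelium markers Epcam, Cdh1, Vil1, Cdx2, Lgals4 and Cldn7 were all detected, and summed to 254289.6 or more in every library. WT stem library 1 stood apart: its 9 fibroblast and muscle markers summed to 20254 (Vim 13196, Col1a1 4788), against at most 579 in each of the other 11 libraries. The sum of 579 was that of KO stem library 3 (Vim 356, Col1a1 159), while differentiated libraries did not exceed 84.6. Keratin calls that use the WT stem group are also given without WT stem library 1. Where they changed, so are the list counts given for the stem cell condition, differentiation in WT organoids or the interaction. For lists and other keratins this setting was chosen after seeing the data. Without WT stem library 1, limma called 1365 of all 14856 genes for KO against WT in the stem cell condition (976 with it). It called 10780 genes for differentiation in WT organoids (10732 with the library) and 1603 for the interaction (1292 with the library).

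On GRCm38 the genes lay in the keratin clusters of chromosomes 11 and 15. Krt20 (ENSMUSG00000035775, minus strand, 99428403 to 99438150) and Krt23 (ENSMUSG00000006777, minus strand, 99477974 to 99493137) were neighbours on chromosome 11, 39.8 kb apart with no annotated gene between them. Krt19 (ENSMUSG00000020911, minus strand, 100140810 to 100148665) followed 648 kb further on. On chromosome 15, Krt80 (ENSMUSG00000037185, minus strand, 101347444 to 101370162) and Krt7 (ENSMUSG00000023039, plus strand, 101411043 to 101430313) were 40.9 kb apart. Krt4 (ENSMUSG00000059668, minus strand, 101918535 to 101924735) lay 72.0 kb from Krt8 (ENSMUSG00000049382, minus strand, 101996698 to 102004482). Krt18 (ENSMUSG00000023043, plus strand, 102028180 to 102032027) began 23.7 kb beyond Krt8 and is read away from it, the only type I gene in the type II cluster.

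RefSeq promoter windows (GRCm38.p6, 250 bases before to 50 after the start) matched 5 of the 8 genes. Those of Krt20, Krt8 and Krt18 are printed because Krt20 moved most and because Krt8 and Krt18 are neighbours and filament partners whose levels moved apart. Capitals mark the AhR core motif GCGTG on either strand (CACGC when read from the other) and TATAA on the gene's own strand.
Krt20 (chr11:99438104-99438403, minus strand): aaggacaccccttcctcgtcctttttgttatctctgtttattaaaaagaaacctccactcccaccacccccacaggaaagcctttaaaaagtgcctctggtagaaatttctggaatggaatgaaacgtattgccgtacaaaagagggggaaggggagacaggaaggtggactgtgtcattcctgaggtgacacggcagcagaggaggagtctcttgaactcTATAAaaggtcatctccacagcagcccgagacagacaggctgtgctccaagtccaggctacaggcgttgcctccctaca
Krt8 (chr15:102004293-102004592, minus strand): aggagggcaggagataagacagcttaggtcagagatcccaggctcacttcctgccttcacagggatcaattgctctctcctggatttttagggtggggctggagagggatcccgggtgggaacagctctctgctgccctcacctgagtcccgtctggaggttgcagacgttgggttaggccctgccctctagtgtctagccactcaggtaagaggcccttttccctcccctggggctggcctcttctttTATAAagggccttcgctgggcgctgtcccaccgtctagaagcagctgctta
Krt18 (chr15:102027966-102028265, plus strand): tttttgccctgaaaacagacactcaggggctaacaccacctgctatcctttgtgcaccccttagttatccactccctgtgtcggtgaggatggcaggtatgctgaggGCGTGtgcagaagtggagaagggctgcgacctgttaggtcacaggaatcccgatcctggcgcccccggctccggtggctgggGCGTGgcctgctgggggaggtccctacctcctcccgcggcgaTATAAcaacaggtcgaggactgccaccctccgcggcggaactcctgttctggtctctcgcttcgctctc
The window of Krt18 held 2 GCGTG motifs, with first bases 143 and 61 bases before the start, and Krt23 held 1 in the reverse reading. Krt20, Krt8 and Krt7 held none. Of all 32851 mouse windows 32.4% held at least 1. TATAA was found in the windows of Krt20, Krt8 and Krt18 and in 17.5% of all windows. Relative to the start its first base lay at -29 in Krt20, -19 in Krt18 and -1 in Krt8, where the match spans the start itself. These are letter matches in a 300-base window and say nothing about binding.

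Together the 8 transcripts made up 2.29% ± 0.08 of normalized counts in KO differentiated and 2.54% ± 0.16 in WT differentiated libraries, and 1.33% ± 0.16 in KO stem and 1.29% ± 0.04 in WT stem libraries (SD, n = 3 each). Krt8, Krt19, Krt7 and Krt18 supplied nearly all of this, 97.2% to 98.6% of the keratin counts in differentiated libraries. In KO stem libraries their part was 92.1% to 93.7%, below the 96.6% to 97.2% of WT stem libraries, and Krt4 was the most abundant of the remaining genes there. Per kilobase of merged exon sequence, Krt8 had the highest mean in all groups, with means of 223576 in KO differentiated, 285472 in WT differentiated, 107987 in KO stem and 130641 in WT stem libraries. Krt19 had means of 214257, 252882, 88637 and 96676 per kilobase in the same groups, and Krt18 means of 106005, 108927, 93446 and 86145. The ranges per kilobase of Krt8 and Krt19 overlapped in KO differentiated libraries, and those of Krt19 and Krt18 in KO stem and WT stem libraries. In KO stem libraries the range of Krt8 (95577 to 118057) also overlapped those of Krt18 (84217 to 100185) and Krt19 (76221 to 102104). The order of the genes that overlapped is not set in those groups. Measured by the longest transcript, Krt19 passed Krt8 in both differentiated groups, because the merged exons of Krt19 (1855 bases) are longer than its longest transcript (1576 bases). Krt80 and Krt23 were the lowest in differentiated libraries and Krt20 in stem libraries.

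**Figure D1:**
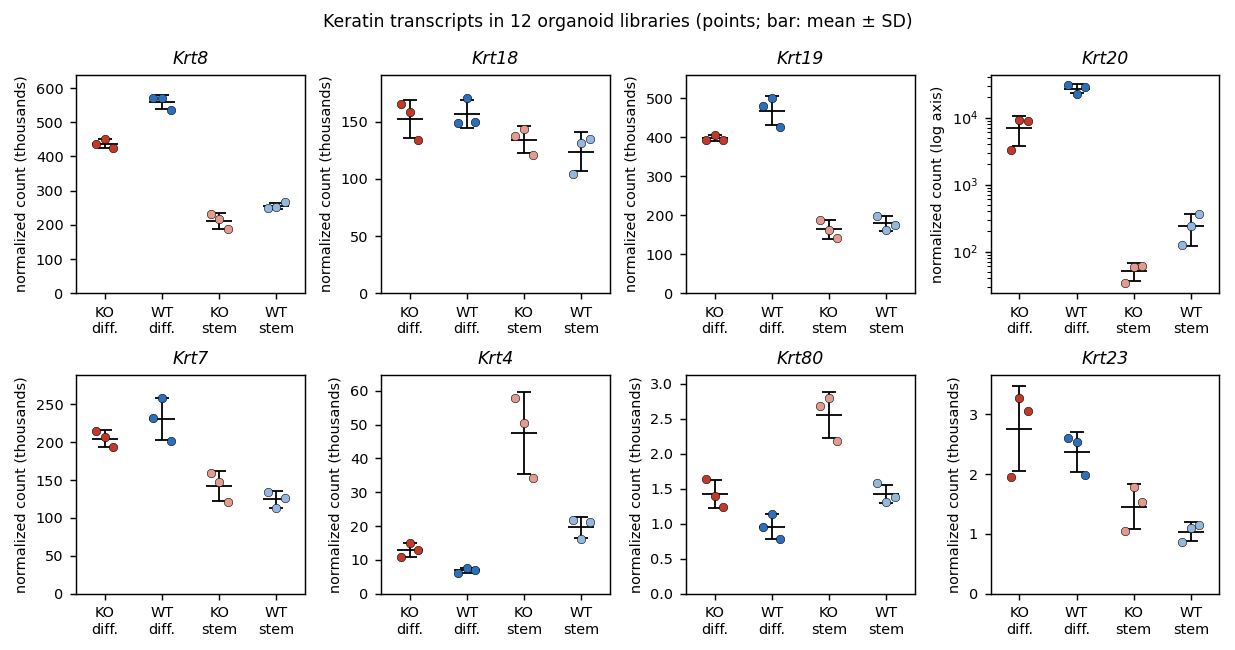
Normalized counts of the 8 keratins in each of the 12 libraries (points, by group on the horizontal axis), with mean and SD bars. Axes start at 0, except for Krt20, whose axis is logarithmic. Krt20 lies at 3248 to 30197 in differentiated and 33.4 to 366 in stem libraries, while Krt4 and Krt80 are highest in KO stem libraries.

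Keratin transcripts split in 2 directions in KO organoids of the differentiated condition. Of the 8 genes, Krt20 and Krt8 fell and Krt4 and Krt80 rose. The same contrast called 27.6% of all genes tested (13.8% up and 13.9% down), and the median log2 change was -0.10 over the 8 keratins and 0.02 over all genes. In the stem cell condition Krt20 fell and Krt4 and Krt80 rose, 3 of 8 genes where 6.57% of all genes were called (3.48% up and 3.09% down), with a median of 0.16 over the keratins and -0.04 over all genes. The same 3 were called without WT stem library 1, where the uncalled changes were -0.30 for Krt8, 0.33 for Krt23, 0.25 for Krt7, 0.0050 for Krt18 and -0.05 for Krt19. Libraries of the 2 genotypes did not overlap for 5 keratins in the differentiated condition (53.1% of all genes) and for 4 in the stem cell condition (29.5% of all genes).

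With differentiation nearly every member changed. In KO organoids 7 of 8 were called, where 67.7% of all genes were (34.1% up and 33.6% down): Krt20, Krt19, Krt8, Krt23 and Krt7 rose and Krt4 and Krt80 fell. In WT organoids all 8 were called, where 72.2% of all genes were (36.3% up and 35.9% down), since Krt18 also rose. Libraries of the 2 conditions did not overlap for 7 keratins in KO (74.3% of all genes) and for 8 in WT organoids (75% of all genes). The median log2 change of the 8 was 0.73 in KO and 1.01 in WT organoids, and 0.01 over all genes in each. Without WT stem library 1 the WT changes were 1.11 for Krt8, 1.47 for Krt19, 0.94 for Krt7, 1.07 for Krt23 (adjusted p = 0.00255), -1.42 for Krt4 (adjusted p = 1.18e-04) and -0.51 for Krt80 (adjusted p = 0.0148), all still called, while Krt18 was not. Changes were in the same direction in both genotypes for each gene. The KO and WT comparisons in the 2 conditions share no library, but both fits use 1 shared spread.

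**Figure D2:**
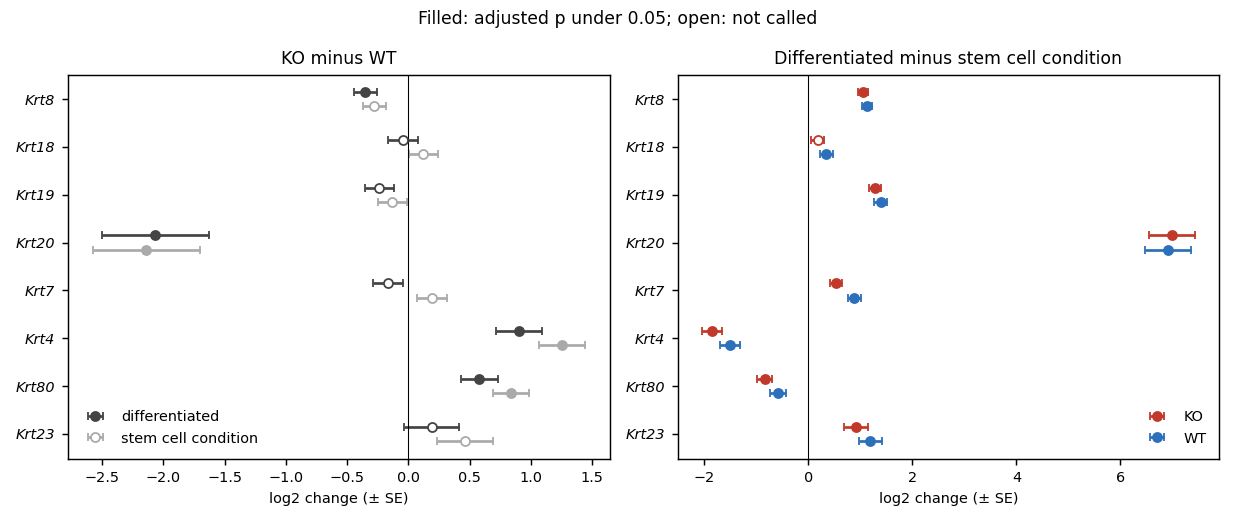
Log2 changes with SE of the 8 keratins, KO minus WT on the left (dark: differentiated, light: stem cell condition) and differentiated minus stem cell condition on the right (red: KO, blue: WT). Filled points have an adjusted p under 0.05. On the left Krt20 lies at -2.07 and -2.14 and Krt4 at 0.90 and 1.25, and on the right Krt20 lies at 6.99 and 6.91 with Krt4 and Krt80 below 0.

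Krt20, the keratin of mature surface cells, had the widest range. Its normalized counts were 3248, 9106 and 8947 in KO differentiated libraries, against 30197, 22425 and 28678 in WT differentiated libraries. Every KO library lay below every WT library, and KO library 1 was well below the other KO libraries. The log2 change was -2.07 ± 0.44 (adjusted p = 0.00684), a fold of 0.239 with a 95% interval of 0.122 to 0.466. Krt20 in the stem cell condition was at 33.4, 59.4 and 61.1 in KO libraries (62, 81 and 60 reads), against 126, 237 and 366 in WT libraries (77, 214 and 317 reads). The groups did not overlap here either, although WT library 1, the library rich in fibroblast markers, was the lowest of its group. The log2 change was -2.14 ± 0.44 (adjusted p = 0.0166), and -2.55 with an adjusted p of 0.00598 without that library. This call was lost without KO stem library 1 (adjusted p = 0.081), without WT stem library 2 (0.0546) and when only the compared groups were fitted (0.0733). Among all 14856 genes Krt20 had the 106th lowest change in the differentiated and the 74th lowest in the stem cell condition.

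With differentiation Krt20 rose by 6.99 ± 0.44 in KO organoids (adjusted p = 1.08e-07) and by 6.91 ± 0.44 in WT organoids (adjusted p = 7.38e-08). Group means were 7100.3 in KO differentiated against 51.3 in KO stem libraries, and 27100.0 in WT differentiated against 243 in WT stem libraries. These were the 23rd highest rise of all genes in KO and the 36th highest in WT organoids. The rise was 6.51 in WT organoids without WT stem library 1. Although KO organoids sat lower in both conditions, the fold of differentiation differed between genotypes by a factor of only 1.05, with a wide 95% interval of 0.41 to 2.71 (interaction log2 0.07 ± 0.62, adjusted p = 0.953). In bulk RNA, fewer cells of a type and less transcript per cell cannot be told apart, for Krt20 and for every gene that follows.

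Other genes of the colon surface moved beside Krt20. Of 15 surface colonocyte genes on a list that does not hold Krt20, 14 fell in KO differentiated organoids and none rose (median log2 change -2.14), and 7 fell in the stem cell condition (median -1.71), or 9 without WT stem library 1 (median -1.88). The shares of all genes called were 27.6% in the differentiated and 6.57% in the stem cell condition. Without WT stem library 1 the stem cell condition had 1365 of all 14856 genes called. Clca4a, a secreted protease of enterocytes, averaged 8947 in KO differentiated and 55508 in WT differentiated libraries (log2 -2.77 ± 0.35, adjusted p = 6.17e-04). Slc26a3, the chloride and bicarbonate exchanger of the colon, averaged 242 in KO differentiated and 1272 in WT differentiated libraries (-2.69 ± 0.66, adjusted p = 0.0124). With differentiation 13 of the 15 rose in each genotype, 1 fell in KO organoids, and the medians were 3.88 in KO and 5.52 in WT. The differentiation contrasts called 67.7% of all genes in KO and 72.2% in WT organoids. General colon markers fell as well: 5 of 6 were lower in KO differentiated organoids, with Cdx2, a transcription factor of intestinal identity, at -0.66 ± 0.16 (adjusted p = 0.0109) and Vil1, a microvillus protein, at -0.45 ± 0.08 (adjusted p = 0.00337). Their part in the Krt20 result was not tested.

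Krt8, the main type II chain of simple epithelia, was a very abundant transcript with little spread. It was at 437014, 451990.4 and 424283 in KO differentiated libraries, against 570902, 570469 and 535494 in WT differentiated libraries. The groups did not overlap, and the KO mean was 0.783 of the WT mean. The log2 change was -0.35 ± 0.09 (adjusted p = 0.0186). The call was lost without KO differentiated library 3, WT differentiated library 1 or WT differentiated library 2, and with only the compared groups in the fit (adjusted p = 0.0924). Krt8 in the stem cell condition was at 231156, 216021 and 187139 in KO libraries, against 248909, 252163 and 266313 in WT libraries. These groups did not overlap either, but the log2 change of -0.28 ± 0.09 missed the threshold (adjusted p = 0.0983), while DESeq2 on the recovered reads called it (adjusted p = 0.00607). With differentiation Krt8 rose by 1.05 ± 0.09 in KO (adjusted p = 1.69e-06) and by 1.13 ± 0.09 in WT organoids (adjusted p = 6.70e-07).

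Krt18, the type I partner of Krt8, had the smallest log2 change of the 8 in each of the 4 comparisons of genotype or condition. Its levels were 165159.6, 158105 and 133722 in KO differentiated libraries, against 149076, 170734 and 149776 in WT differentiated libraries, and the groups overlapped (log2 -0.04 ± 0.12, 95% interval of the fold 0.807 to 1.17). In the stem cell condition it was at 137859, 143966 and 121019 in KO libraries, against 104439, 131708 and 135224 in WT libraries, again overlapping (0.12 ± 0.12, interval 0.905 to 1.31). With differentiation it rose by 0.35 ± 0.12 in WT organoids (adjusted p = 0.0234). That call was lost without WT stem library 1 (adjusted p = 0.0954), without WT differentiated library 2 (0.0899) and under quantile normalization (0.0935). In KO organoids the change of 0.18 ± 0.12 was not called (adjusted p = 0.209), while quantile normalization called it (0.33, limma adjusted p = 0.00755).

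The ratio of Krt8 to Krt18 counts took a separate range in each of the 4 groups. It was 2.89 ± 0.27 in KO differentiated and 3.58 ± 0.24 in WT differentiated libraries, and 1.57 ± 0.09 in KO stem and 2.09 ± 0.26 in WT stem libraries (SD, n = 3 each). No KO library overlapped a WT library of the same condition, with 2.65 to 3.17 against 3.34 to 3.83 in the differentiated and 1.5 to 1.68 against 1.91 to 2.38 in the stem cell condition. The ratio is given without a test, being chosen with these values known. The transcript of the pseudogene Krt8-ps matched the Krt8 transcript at 98.6% over 941 bases, but its own count reached at most 10.7. The transcript of Gm5200 matched the Krt18 transcript at 90.45% over 1267 bases, and Gm5200 has no count in these data.

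Krt19, a type I chain that can also pair with Krt8, followed Krt8 more than Krt18. It was at 392478, 406125 and 393735 in KO differentiated libraries, against 479395, 501220.1 and 426672 in WT differentiated libraries. The groups did not overlap, but the log2 change of -0.24 ± 0.12 was not called (adjusted p = 0.161), and only quantile normalization called it (-0.41, adjusted p = 0.0404). Stem cell condition levels were 189404, 162471 and 141391 in KO libraries, against 199212, 162951 and 175839.8 in WT libraries, which overlapped. With differentiation it rose by 1.28 ± 0.12 in KO (adjusted p = 2.26e-06) and 1.39 ± 0.12 in WT organoids (adjusted p = 8.31e-07).

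Krt7, a type II chain of ducts and glands, was at 214559.8, 206409.8 and 193361 in KO differentiated libraries, against 231442, 257911 and 201895 in WT differentiated libraries. Stem cell condition levels were 159361, 147925 and 120536 in KO libraries, against 134576, 112756 and 126089.5 in WT libraries. Genotypes overlapped in both conditions, with log2 changes of -0.16 ± 0.12 and 0.19 ± 0.12 that were not called. With differentiation it rose by 0.53 ± 0.12 in KO (adjusted p = 0.00244) and by 0.89 ± 0.12 in WT organoids (adjusted p = 4.68e-05). The difference between these rises was -0.35 ± 0.17 (adjusted p = 0.214), the interaction with the lowest p of the 8, and spans a fold from 0.601 to 1.02.

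Krt4, the type II keratin of moist stratified epithelia, rose in KO organoids where Krt20 fell. It was at 57771, 50467 and 34226 in KO stem libraries, against 21662, 16066 and 21132 in WT stem libraries. The lowest KO library exceeded the highest WT library, and the log2 change was 1.25 ± 0.19 (adjusted p = 0.00324), a fold of 2.38 with a 95% interval of 1.79 to 3.18. Without WT stem library 1 it was 1.33 (adjusted p = 0.0050). In the differentiated condition Krt4 was at 10872, 15017 and 13038 in KO libraries, against 6146, 7568 and 7003 in WT libraries, with no overlap and a log2 change of 0.90 ± 0.19 (adjusted p = 0.00647). With differentiation it fell by 1.85 on the log2 scale in KO organoids (SE 0.19, adjusted p = 5.04e-06) and by 1.5 in WT organoids (SE 0.19, adjusted p = 2.15e-05). KO differentiated libraries thus still lay below every WT stem library. The rise in KO organoids was not shown to differ between conditions (interaction -0.35 ± 0.27, adjusted p = 0.427).

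Krt13, the type I partner of Krt4 in stratified epithelia, was far scarcer, with means of 671 in KO stem and 993 in WT stem libraries. Its log2 change in KO stem organoids was -0.57 ± 0.17 and was not called (adjusted p = 0.0644). With differentiation Krt13 did fall, by 2.32 in KO (SE 0.17, adjusted p = 2.95e-07) and by 2.74 in WT organoids (SE 0.17, adjusted p = 5.17e-08). Of 10 stratified squamous markers 8 were tested. In KO differentiated organoids limma called none of them, with 1 at an unadjusted p under 0.05, while edgeR and DESeq2 called 1 each. In KO stem organoids 1 rose (Ivl, at a mean of 13.1 in KO stem and 1.31 in WT stem libraries) and 1 fell (Krt15). The shares of all genes called were 27.6% in KO differentiated and 6.57% in KO stem organoids. The defining regulator Trp63 did not exceed 1.07 and Sprr1b 1.02 in any library. The list summed to 1339 to 1692 in KO stem and 1679 to 3603 in WT stem libraries, where the upper value was WT stem library 1 alone and the other 2 did not exceed 2085, and to 2402 to 3544 in KO differentiated and 3062 to 4336 in WT differentiated libraries.

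Krt80, a type II keratin known in human epithelia to lie near desmosomes and the cell edge, also rose in KO organoids and fell with differentiation. It was at 2681, 2795 and 2183 in KO stem libraries, against 1577, 1316 and 1387 in WT stem libraries. The groups did not overlap and the log2 change was 0.84 ± 0.15 (adjusted p = 0.00786), or 0.91 (adjusted p = 0.00808) without WT stem library 1. In the differentiated condition it was at 1637, 1398 and 1244 in KO libraries, against 954, 1138 and 784 in WT libraries, a change of 0.58 ± 0.15 (adjusted p = 0.0153). That call was lost without KO differentiated library 1 (adjusted p = 0.0635) or WT differentiated library 3 (0.0658). With differentiation Krt80 fell by 0.84 in KO (SE 0.15, adjusted p = 3.60e-04) and by 0.59 in WT organoids (SE 0.15, adjusted p = 0.00378).

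Krt23, a type I keratin known in mouse liver to be induced by stress, was at 1944, 3266 and 3055 in KO differentiated libraries, against 2595, 2533 and 1992 in WT differentiated libraries. Stem cell condition levels were 1042, 1778 and 1535 in KO libraries, against 861, 1103 and 1147 in WT libraries. Genotypes overlapped in both conditions, with log2 changes of 0.19 ± 0.23 and 0.46 ± 0.23 and 95% intervals of the fold of 0.807 to 1.61 and 0.974 to 1.95. Its rise with differentiation was called in KO (0.92 ± 0.23, adjusted p = 0.00361) and WT organoids (1.2 ± 0.23, adjusted p = 5.44e-04). Neither Krt23 nor Krt7 had a called genotype difference, while their chromosomal neighbours Krt20 and Krt80 did, and the difference between neighbours was not tested.

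No keratin of the 8 had a called interaction of genotype and condition in limma, where 8.7% of all genes did. None reached an unadjusted p under 0.05 either. Without WT stem library 1 limma called 0, with 1 gene at an unadjusted p under 0.05. DESeq2 and edgeR on recovered reads called 0, with 1 gene each at an unadjusted p under 0.05.

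Because filaments need both chain types, type II and type I levels per kilobase were summed over 4 genes each. The ratio of type II to type I was 0.786 to 0.803 in KO differentiated and 0.824 to 0.872 in WT differentiated libraries, and 0.799 to 0.846 in KO stem and 0.846 to 0.867 in WT stem libraries. Every KO library lay below every WT library in the differentiated condition, while the genotypes overlapped in the stem cell condition. The absolute ratio rests on the length used for each gene. Without length correction its group means were 1.17 in KO differentiated, 1.22 in WT differentiated, 1.34 in KO stem and 1.32 in WT stem libraries, so the direction between genotypes turned in the stem cell condition.

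**Figure D3:**
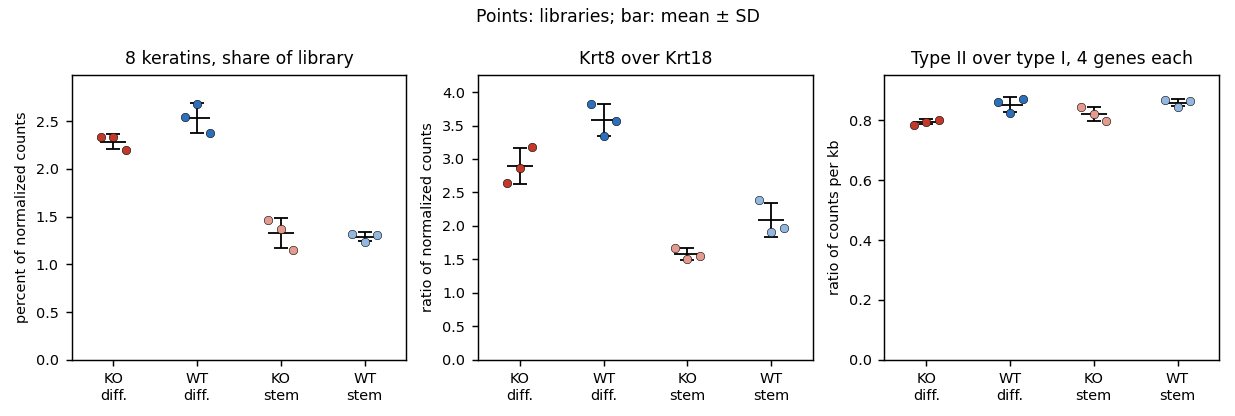
Share of normalized counts held by the 8 keratins in percent (left), ratio of Krt8 to Krt18 counts (middle) and ratio of summed type II to type I keratin counts per kilobase of merged exons (right), by library (points) with mean and SD bars and axes from 0. The share is 2.20% to 2.69% in differentiated and 1.15% to 1.46% in stem libraries, and the Krt8 to Krt18 ratio is lower in KO than in WT libraries of each condition.

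The genes whose pattern over the 12 libraries was most like each keratin, by Pearson r of log2 values, are given as a description. The 12 points share groups and culture condition, so r includes the differences between groups and carries no p. For Krt20 they were Tmem253 (r = 0.997), Dsc2 (0.997), a desmosomal cadherin, and Ces2c (0.996), a carboxylesterase. For Krt8 they were Syt16 (0.995), S100a6 and Mfsd6. For Krt19 they were Bpgm (0.995), Inpp5f and Ykt6, for Krt7 Tmbim1 (0.981), S100a11 and Ube2q1, and for Krt18 Errfi1 (0.944), Nudt18 and Wls. For Krt4 they were Pfn2 (0.973), Chil5 and Tmem158, for Krt80 Rgs16 (0.979), Pak3 and Serpinb9b, and for Krt23 Ppp3ca (0.955), Fes and Sh3bgrl3. No keratin was among the 3 genes closest to another.

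Desmosomes are the junctions that keratin filaments hang from. Of 9 tested desmosome genes 5 fell and 1 rose in KO differentiated organoids (median log2 change -0.29), where 27.6% of all genes were called. Dsp, desmoplakin, which ties keratin to the junction, averaged 57547 in KO differentiated and 82519.7 in WT differentiated libraries (log2 -0.52 ± 0.07, adjusted p = 0.00121). The desmosomal cadherins Dsg2 (-0.48 ± 0.13, adjusted p = 0.019) and Dsc2 (-0.47 ± 0.13, adjusted p = 0.0197) fell as well. Pkp1, a plakophilin best known from stratified epithelia, rose, averaging 7802 in KO differentiated and 2420.3 in WT differentiated libraries (1.68 ± 0.15, adjusted p = 1.06e-04). In the stem cell condition limma called none of the 9, with 1 at an unadjusted p under 0.05, while edgeR called 0 and DESeq2 called 1. Without WT stem library 1 limma called 2 of the 9 there, both lower in KO organoids, where 1365 of all 14856 genes were called. With differentiation 8 of 9 rose in KO and 7 of 9 in WT organoids, and none fell. The shares of all genes called were 67.7% in KO and 72.2% in WT organoids. The interaction was called for Pkp1 (1.66 ± 0.21, adjusted p = 0.00772) and Dsp (-0.48 ± 0.10, adjusted p = 0.0224), where 8.7% of all genes had one. Without WT stem library 1 the called interactions were 1 positive and 2 negative, where 1603 of all 14856 genes had one.

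Of 10 tested plakins and other keratin linkers, 5 fell and 1 rose in KO differentiated organoids (median -0.25). In KO stem organoids limma called none of them, with 2 at an unadjusted p under 0.05, while edgeR and DESeq2 called 1 each. For KO against WT, limma called 27.6% of all genes in differentiated and 6.57% in stem organoids. Plec, plectin, a giant cross-linker of filaments, averaged 29222 in KO differentiated and 46648 in WT differentiated libraries (-0.67 ± 0.11, adjusted p = 0.0019). Dst, dystonin of hemidesmosomes (-0.68 ± 0.17, adjusted p = 0.0138), Evpl, envoplakin (-0.61 ± 0.10, adjusted p = 0.00221), and Itga6, the hemidesmosomal integrin chain (-0.56 ± 0.08, adjusted p = 0.00132), fell too. With differentiation 7 rose and 1 fell in KO organoids, and 6 rose and none fell in WT organoids, or 7 and none without WT stem library 1. The differentiation contrasts called 67.7% of all genes in KO and 72.2% in WT organoids. The interaction was called for Evpl (-0.77 ± 0.14), Plec (-0.62 ± 0.15), Ppl, periplakin (-0.51 ± 0.11), and Itga6 (-0.46 ± 0.12), with adjusted p of 0.0148, 0.0324, 0.0195 and 0.0361 in this order. A called interaction was found for 8.7% of all genes. Without WT stem library 1 the called interactions of this list were 1 positive and 4 negative, where 1603 of all 14856 genes had one. Evpl, Plec and Itga6 rose with differentiation in both genotypes, and less in KO organoids, while Ppl fell in KO organoids (-0.42, adjusted p = 4.24e-04) and was at 0.09 in WT organoids, which was not called.

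Of the 14 chaperones, kinases and proteases that act on keratins, 1 rose and 3 fell in KO differentiated organoids (median -0.02), 4 of 14 where 27.6% of all genes were called. Hspb1, a small heat shock protein that binds filaments, rose, averaging 279 in KO differentiated and 108 in WT differentiated libraries (1.38 ± 0.24, adjusted p = 0.00292), and rose in the stem cell condition too (1.0 ± 0.24, adjusted p = 0.0342). With differentiation 7 rose and 3 fell in KO, and 6 rose and 2 fell in WT organoids, or 8 and 2 without WT stem library 1. The differentiation contrasts called 67.7% of all genes in KO and 72.2% in WT organoids. Of 10 tested filament genes other than keratins, 4 rose and 1 fell in KO differentiated organoids (median 0.61), against 27.6% of all genes called. In the stem cell condition 1 rose, or 1 rose and 1 fell without WT stem library 1, where 6.57% of all genes were called with it. Nes, nestin, a filament protein of progenitor cells, averaged 2094 in KO differentiated and 303 in WT differentiated libraries (2.71 ± 0.22, adjusted p = 5.11e-05). Lmnb1, lamin B1 of the nuclear envelope, fell with differentiation by 1.15 in KO and by 1.99 in WT organoids (SE 0.10 each, adjusted p = 1.53e-06 and 1.31e-08).

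Cornified envelope proteins toughen the surface of stratified epithelia. Of 10 tested genes of this kind, 1 rose and 4 fell in KO differentiated organoids (median -0.43), and 1 rose in the stem cell condition, or 2 without WT stem library 1. The shares of all genes called were 27.6% in the differentiated and 6.57% in the stem cell condition. Sprr2a3 averaged 12747 in KO differentiated and 47392 in WT differentiated libraries (-1.89 ± 0.18, adjusted p = 1.23e-04). Sprr2a1, Sprr2a2 and Sprr2a3 are near-identical genes, so how reads were split among them is uncertain. Tgm1, the transglutaminase of cornifying cells, rose, averaging 1255 in KO differentiated and 290.2 in WT differentiated libraries (2.09 ± 0.30, adjusted p = 0.00125). Anxa8, an annexin, rose in KO stem organoids (0.48 ± 0.10, adjusted p = 0.0143). With differentiation 5 rose and 4 fell in KO, and 6 rose and 3 fell in WT organoids, or 6 and 2 without WT stem library 1. The differentiation contrasts called 67.7% of all genes in KO and 72.2% in WT organoids.

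The other 47 keratin genes were scarce. In 28 of them no library reached 10, 6 were at 0 in all libraries, 17 were tested, and the highest count was 3129 for Krt14. In KO differentiated organoids 1 of the 17 was called, where 27.6% of all genes were, and it fell. This was Krt27, a hair follicle keratin, at 19.8, 40.6 and 57.9 in KO libraries, against 209.8, 281 and 116 in WT libraries (log2 -2.36 ± 0.50, adjusted p = 0.00661). Stem cell condition levels of Krt27 were 4.31, 4.40 and 3.05 in KO libraries, against 58.7, 17.7 and 21.9 in WT libraries. The highest WT value was that of WT stem library 1, and without it the WT mean was 19.8. In KO stem organoids 2 of the 17 fell and 1 rose, where 6.57% of all genes were called. Krt27 fell (-2.59 ± 0.50, adjusted p = 0.0118), and by 2.09 on the log2 scale without WT stem library 1 (adjusted p = 0.0201). Krt15 fell too (-1.08 ± 0.22, adjusted p = 0.0153), at -1.07 without it (adjusted p = 0.0274), and Krt79 rose (1.23 ± 0.33, adjusted p = 0.0492), at 1.51 without it (adjusted p = 0.0194). With differentiation 8 rose and 4 fell in KO, and 10 rose and 4 fell in WT organoids, or 9 and 4 without WT stem library 1, where Krt78 was no longer called (adjusted p = 0.0562). Of all genes 67.7% were called with differentiation in KO and 72.2% in WT organoids. The falls were Krt13, Krt15, Krt39 and Krt83 in both genotypes. Krt84, a keratin of hair and nail, had the highest rise, averaging 193 in KO differentiated and 4.03 in KO stem libraries (5.12 ± 0.49). Krt14, the basal keratin of stratified epithelia, rose to a mean of 1686 in KO differentiated against 357 in KO stem libraries, and to 2641 in WT differentiated against 826 in WT stem libraries, where WT stem library 1 alone was at 1572.

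**Figure D4:**
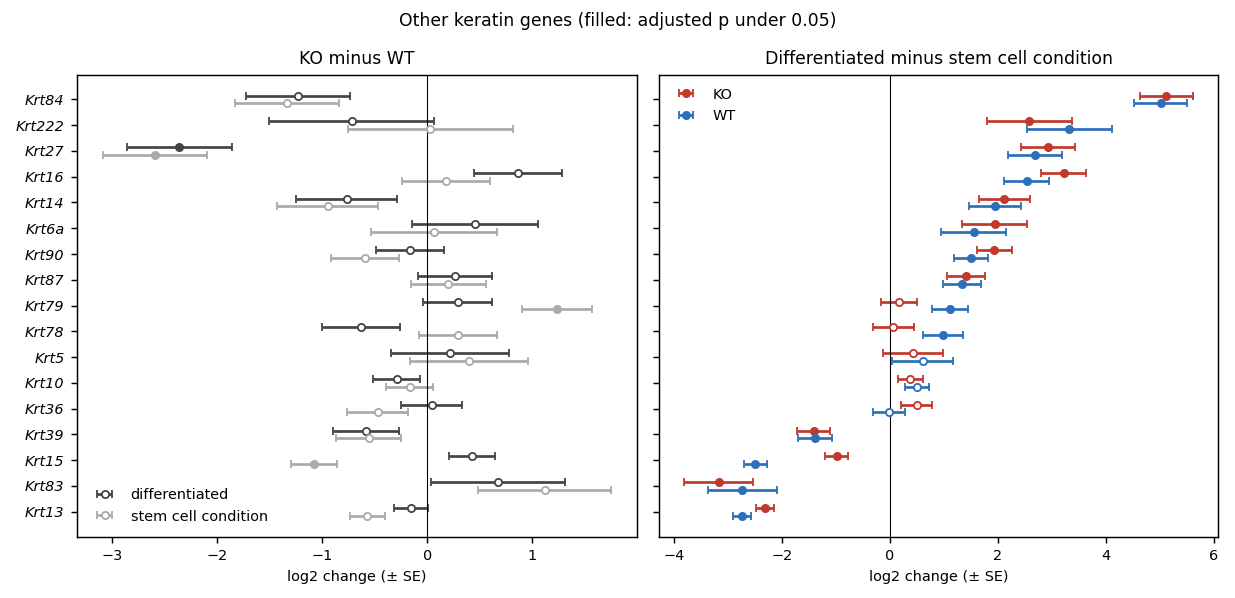
Log2 changes with SE of the 17 other keratin genes tested, KO minus WT on the left (dark: differentiated, light: stem cell condition) and differentiated minus stem cell condition on the right (red: KO, blue: WT). Filled points have an adjusted p under 0.05. Krt27 lies at -2.36 and -2.59 on the left, and on the right Krt84 is highest at 5.12 in KO organoids and Krt13, Krt15, Krt39 and Krt83 lie below 0.

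Markers of other lineages were read beside these values. Of 6 mesothelium markers Msln, also a gene of other epithelia, was high in all libraries (44637 to 92278). The defining markers Wt1 and Calb2 did not exceed 1.07. Upk1b averaged 92.1 in KO differentiated and 178 in WT differentiated libraries, against 2.06 in KO stem and 8.27 in WT stem libraries. Lrrn4 averaged 32.9 in KO stem and 30.8 in WT stem libraries, against 0.481 in KO differentiated and 0 in WT differentiated libraries. Upk3b did not exceed 31.8. Of 4 tested, 1 rose and 1 fell with differentiation in KO, and 3 rose and 1 fell in WT organoids (67.7% and 72.2% of all genes called). The list summed to 68797 to 82486 in KO differentiated, 75553 to 92440 in WT differentiated, 52577 to 80726 in KO stem and 44669 to 52207 in WT stem libraries. Of 3 urothelium markers Upk1a averaged 56.5 in KO differentiated and 202 in WT differentiated libraries (-1.83 ± 0.35, adjusted p = 0.00407), while Upk2 did not exceed 0.763. The 6 immune, blood and endothelial markers summed to at most 31.8 in any library, with Cd3e at 0 in all. The parts of these markers in the keratin results were not tested.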

How the data were processed

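Total RNA of 12 organoid libraries was sequenced by the submitters. The deposited table holds a signal per gene and library, normalized counts made by the authors, and the submitters' processing notes name GRCm38, Bowtie2, RSEM 1.2.11 and DESeq2 1.18.1. Filters, annotation and strand use are not given in the sources used here, so genes overlapping on opposite strands cannot be told apart. Among the keratins followed, only Krt80 overlapped another annotated gene that has deposited values. This was Mir1941 on the opposite strand, with 0 shared exon bases and a highest count of 0. Each value was a whole multiple of a step of 0.539 to 2.27 per library (100% of values within 0.05 of a read), from which 25.1 to 99.0 M reads were recovered. Intervals cover the spread between libraries, and depth limits only the lowest genes.

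Genes with at least 10 normalized counts in at least 3 libraries (14856) were tested with limma 3.58.1 in R 4.3.3 on log2 values with a pseudocount of 1, 1 mean per group and a mean-variance trend, fitted to all 12 libraries together, two-sided, with Benjamini-Hochberg adjustment over all genes tested. Alternatives on recovered reads were DESeq2 1.42.0 and edgeR 4.0.16 (quasi-likelihood, TMM). edgeR called 4092 and 943 genes for KO against WT in the differentiated and stem cell condition, where limma called 4103 and 976. Other alternatives were pseudocounts of 0.5 and 5, no filter, a mean of at least 50, quantile normalization, recomputed size factors, only the groups compared, the replicate number as a block, leaving out each library and other gene lengths. The main limma fit, edgeR and DESeq2 were each tested on simulated counts that held no effect of the replicate number. The other alternatives were not tested in this way. The main fit did not pair libraries by replicate number. Same-numbered libraries of a genotype deviated together, more in KO (correlations of 0.191 to 0.286) than in WT libraries (0.0552 to 0.145). Gene names, positions and lengths came from GENCODE vM21 (99.3% of identifiers matched).

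Members and lists were chosen with earlier results of these data known. Named were the 8 keratins, called genes among other keratins, up to 4 called genes per list and contrast with the highest absolute change (or the 2 with the highest mean), and the 3 protein-coding genes with the highest r to each keratin. 1 gene under this rule is not reported here. Krt13 in the stem cell condition, and defining markers at or near 0, were named after their values were seen. No fold is given for a gene that a group holds at 3 reads or below.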

Additional observations from a re-analysis of the deposited data

Results flagged for a closer look

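Krt15, a keratin of basal stratified epithelium, had a genotype effect that differed between culture conditions by a test of the difference itself (interaction log2 1.5 ± 0.31, limma adjusted p = 0.0191). Without WT stem library 1, the library rich in fibroblast markers, the interaction was 1.49 (adjusted p = 0.0242). It was at 67.0, 50.3 and 44.3 in KO differentiated libraries, against 36.6, 43.0 and 38.6 in WT differentiated libraries. In the stem cell condition it was at 84.0, 146 and 97.7 in KO libraries, against 229.9, 207 and 241 in WT libraries. It was the only gene of the 8 keratins and the 17 other tested keratins with a called interaction, where 8.7% of all genes had one.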

How the results depend on the processing

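Of the 22 keratin changes called, 18 were called in every setting run. The 4 others (Krt8 and Krt80 in KO differentiated, Krt20 in KO stem, Krt18 with differentiation in WT) are given above. Leaving out each library in turn, keratins called numbered 3 to 4 and 2 to 3 for KO against WT in the differentiated and stem cell condition, 7 and 7 to 8 for differentiation in KO and WT, and 0 for the interaction. No called change reversed. Changes not called reversed for Krt18 (0.21) and Krt7 (0.080) under quantile normalization and for Krt18 without KO differentiated library 3 (0.049) or WT differentiated library 2 (0.02; range over libraries -0.10 to 0.049), all in KO differentiated organoids. The interaction reversed for Krt18 under quantile normalization (0.15), for Krt19 without KO stem library 1 (0.0017; range -0.21 to 0.0017), and for Krt20 with a pseudocount of 5 (-0.010) and without KO differentiated library 2 (-0.18) or 3 (-0.16), WT differentiated library 2 (-0.06), KO stem library 1 (-0.20) or WT stem library 3 (-0.29; range -0.29 to 0.57). The cause was not tested. Ratios of type II to type I keratins in KO and WT differentiated libraries were 0.770 and 0.819 by the longest transcript, 0.770 and 0.819 by the principal transcript (an alternative chosen after seeing the data) and 1.17 and 1.22 without length, with 1.34 in KO stem and 1.32 in WT stem libraries.

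Replicate numbers are shared by the groups, and 12 of 12 libraries correlated best with their own number within a genotype. With the number as a block the keratins called were 4, 3, 7, 8 and 0, as without it, and a block within each genotype, for differentiation and the interaction, changed no keratin call either. Genes called in all for KO against WT in the stem cell condition numbered 976, against 1984 by DESeq2, 1486 with the block, 297 with only the groups compared and, leaving out each library, 363 to 1414 (KO stem libraries 1 and 2 gave 363 and 401, and WT stem library 2 gave 495). For the interaction they numbered 1292, against 2442 by DESeq2, 2141 with the block, 1347 with the block within genotype, 750 without a filter and, leaving out each library, 342 to 1603. The interaction counts that moved most were 342 without WT differentiated library 3, 524 without library 1 and 843 without library 2 of that group, 420, 459 and 794 without KO stem library 1, 2 and 3, and 739 without KO differentiated library 2. Genes called for KO against WT in the differentiated condition numbered 4103, and 2233 to 5699 leaving out each library, with 2233 and 2557 without WT differentiated library 3 and 1, 2421 without KO differentiated library 1 and 5699 without WT stem library 1. Depth limits Krt20 in stem libraries, which rests on 60 to 317 reads.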
